A study of Rattus norvegicus with 26 samples.

Results

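The miR-181 family on the rat miRNA array consists of 4 mature miRNAs, rno-miR-181a, rno-miR-181b, rno-miR-181c and rno-miR-181d. They were taken by name, as the array entries that carry exactly these names and no star, and are 4 of the 677 miRNAs on the array. Liver RNA of 26 male Sprague-Dawley rats was labelled with Cy3 and hybridized to single-colour arrays, 1 rat per array. The question was how miRNA levels differ between livers that lost a large or a small part of their mass by partial hepatectomy (PH) and livers that lost none. The normal group consisted of 3 rats that had no PH, right lobes again being sampled, although the protocol label of these samples reads sham. In 1/3 PH the left lateral lobe was removed, and the data hold right lobes of 2 rats at 6 hours and of 3 rats each at 12, 24 and 36 hours. In 2/3 PH the standard larger part of the liver was removed, and right lobes were taken from 3 rats at each of the same times. The source labels of some arrays give a time 1 or 2 hours later than the titles, which were followed here, and the labels give no age. The samples were whole liver tissue, so that fewer cells of a type and less miRNA per cell cannot be told apart in any value given here. miR-122, the miRNA that marks hepatocytes, was detected on 26 of 26 arrays.

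miRNAs are short RNAs that lower the output of mRNAs by pairing with them, mainly through the seed near the start of the miRNA, so that members of a family with a common seed share most of their targets. The miR-181 family is best known from lymphocyte development, where miR-181a tunes the sensitivity of T cells to antigen. In liver it has been studied mainly in liver cancer cells with features of hepatic progenitors and in fibrosis.

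The mature sequences are printed because a common seed defines the family and because the remaining bases are all that an array probe can use to tell the members apart. All 4 members matched a rat entry in RefSeq (GRCr8), where they carry the ending -5p, and capitals mark the seed, bases 2 to 8.
rno-miR-181a: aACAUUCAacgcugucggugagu
rno-miR-181b: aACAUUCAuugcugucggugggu
rno-miR-181c: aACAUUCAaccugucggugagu
rno-miR-181d: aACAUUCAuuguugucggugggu
The seed ACAUUCA was found in 4 of the 693 rat mature miRNA names of that table, which are exactly these 4. Counted from 1 at the start of miR-181a, miR-181b differs by A9U, C10U and A21G, and miR-181d by A9U, C10U, C12U and A21G. miR-181b and miR-181d differ by C12U alone. miR-181c is 22 bases long against 23 in the other members, and 1 edit separates it from miR-181a. The nearest members in sequence are therefore miR-181a with miR-181c and miR-181b with miR-181d, and this pairing crosses the pairing on the chromosomes.

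miR-181a is made from more than 1 place in the genome. Its hairpin Mir181a-1 gives the mature miRNA at chr13:52037081-52037103 on the plus strand, 182 bases before the start of miR-181b in Mir181b1 at chr13:52037263-52037285 on the same strand. Both lie within the span of a long noncoding RNA gene. Mir181a2 gives the same mature sequence at chr3:43025601-43025623 on the plus strand, within the spans of another long noncoding RNA gene and of Nr6a1, which encodes an orphan nuclear receptor. miR-181c, at chr19:40888314-40888335, and miR-181d, at chr19:40888484-40888506, both on the plus strand, start 170 bases apart and lie within no other annotated gene of the table used. The starts of miR-23a and miR-181c on that chromosome are 28536 bases apart. The table gives spans of genes and no exons, so whether a hairpin is exonic or intronic was not determined. The array does not separate the miR-181a made from the 2 hairpins. For miR-181b the table used gave Mir181b1 alone, although the array names both miR-181b-1* and miR-181b-2* as opposite arms. The probe sequences were not available, so whether the miR-181a probes also bind miR-181c or another member was not examined.

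miR-181a was the member that the arrays could measure. The scanner software called it detected on 25 of 26 arrays, and it called miR-181b, miR-181c and miR-181d detected on 0 of 26, as it did 468 of the 677 miRNAs on the array, or 69.1%. The software's call was likewise 0 of 26 for each of the 6 other entries with a miR-181 name, which are the opposite arms miR-181a-1*, miR-181a-2*, miR-181b-1*, miR-181b-2*, miR-181c* and miR-181d*. Each member has 2 probes of 10 spots each on every array, and no spot was saturated. A signal unit is the software's background-subtracted brightness, which falls below 0 where a spot is dimmer than its surroundings. The floor of an array is the lowest signal of any probe that was well above background on most of its spots there.

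The summed probe signal of miR-181a over the 26 arrays ranged from 4.35 to 30.1 signal units with a median of 22.5. For miR-181b the lowest, median and highest sums were -2.55, 2.54 and 5.20 units, for miR-181c -3.77, -0.62 and 2.80 units, and for miR-181d -1.71, 1.58 and 6.15 units. The 3 undetected members thus lay around the local background on arrays of all 9 groups. No probe of miR-181b, miR-181c or miR-181d reached the floor of its array: the highest value was 62.5% of the floor for miR-181b, 32.0% for miR-181c and 35.4% for miR-181d. Of the unmarked spots, 2 of 248 were well above background for the brighter miR-181b probe, 2 of 253 for one miR-181d probe, and none for the other probes of these 3 members. miR-181b, miR-181c and miR-181d were therefore not well above background in any group, and no fold between groups is given for them. In the table of log2 values that the authors deposited, each of the 3 stood at the lowest value of the column in 26 of 26 columns, as did 468 of 677 miRNAs, and in a single column 77.1% to 86.6% of the miRNAs stood at it.

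**Figure D1:**
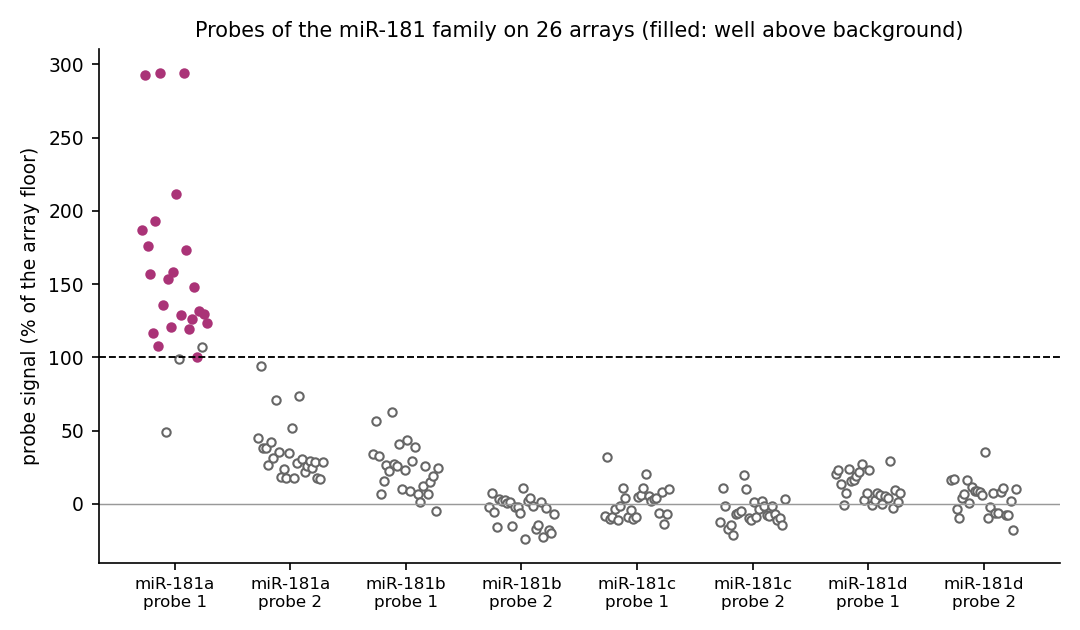
Mean signal of the probes of miR-181a, miR-181b, miR-181c and miR-181d on each of the 26 arrays, as percent of the array's floor (dashed line at 100); filled points are probes well above background on most spots, and the brighter probe of a member is its probe 1. Probe 1 of miR-181a is filled on 23 arrays, and no probe of the other 3 members is filled on any array.

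The probes of miR-181a gave a low signal too. The brighter one was well above background on most spots on 23 of 26 arrays, the exceptions being the second array of 12 hours after 1/3 PH, the first of 24 hours after 1/3 PH and the first of 36 hours after 2/3 PH. On the 25 arrays with detection it stood between 99.1% and 294% of the floor, with a median of 136%. The second probe was well above background on 0 of 26 arrays and made up 11.4% to 24.3% of the summed signal on those 25. The probes moved together over these 25 arrays (Pearson r = 0.90 and Spearman rho = 0.93, scaled signals, n = 25), and the points share the scaling factor of each array. Over the spots of 1 array the median coefficient of variation was 17.6% for the brighter probe and 50.7% for the second. On the second array of 6 hours after 1/3 PH, 1 spot of the brighter probe read 2213 units and had been marked by the software as unreliable. Without marked spots the probe's mean there was 19.8 units, against 239 with them, and the lower value was used.

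The software's own total for miR-181a counted the second probe on some arrays and not on others. It equalled the brighter probe alone on 22 arrays, contained both probes on 3 and matched neither on the second array of 12 hours after 1/3 PH. The 3 arrays with both probes were the second normal liver, the third array of 6 hours after 2/3 PH and the third of 24 hours after 1/3 PH. They share 1 slide and the third scan day. The third array of 12 hours after 2/3 PH, on the same slide and day, had the brighter probe alone. Counting the second probe raised the total on the 3 arrays by 1.24-fold to 1.32-fold, or 0.31 to 0.40 on the log2 scale. The log2 values that the authors deposited for miR-181a were 4.21, 4.39 and 4.30 on these 3 arrays, the highest of the 26. The values used below sum both probes on every array, so that this step does not enter them.

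**Figure D2:**
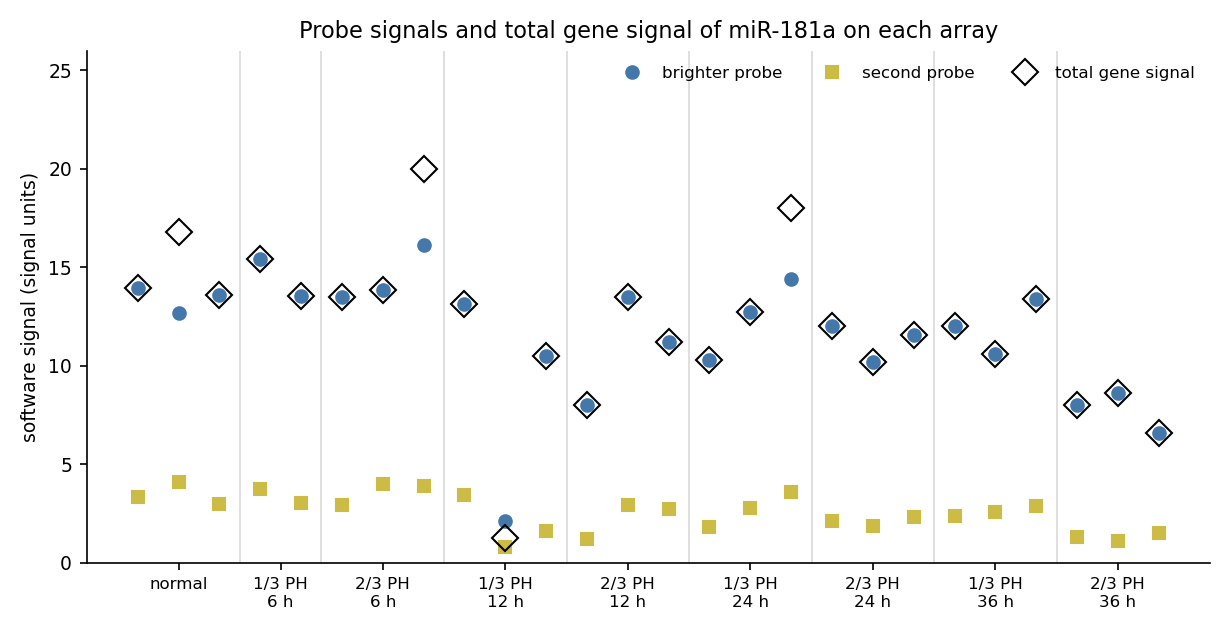
Signal of the brighter probe (circles) and the second probe (squares) of miR-181a and the software's total gene signal (open diamonds), in signal units of the software, on each of the 26 arrays in group order with replicates 1 to 3 from left to right. The diamond lies above the circle on 3 arrays, 1 each of normal liver, 6 hours after 2/3 PH and 24 hours after 1/3 PH.

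Levels of miR-181a are given as log2 of the summed signal after each array was scaled to the 75th percentile of the 109 probes that were well above background on all arrays. Normal livers gave 4.69, 4.62 and 4.10. Of the 6 hour arrays, those of 1/3 PH read 4.48 and 4.61 and those of 2/3 PH 4.69, 4.80 and 4.82. All 3 arrays of 6 hours after 2/3 PH lay above both of 1/3 PH and above the highest normal liver, the nearest of them by less than 0.01. At 12 hours the 1/3 PH arrays gave 4.54, 4.60 and 4.15 and the 2/3 PH arrays 4.06, 4.54 and 4.51. The value of 4.60 is an upper bound, because miR-181a was not detected on that array, where 91 miRNAs were detected against 118 to 155 on the others, and it was set to the array's floor. At 24 hours 1/3 PH had 3.99, 4.33 and 4.66, and 2/3 PH had 4.14, 4.25 and 4.33. The operations overlapped at 12 and at 24 hours. At 36 hours 1/3 PH stood at 4.35, 4.32 and 4.28, above 2/3 PH at 3.62, 3.67 and 3.96. The 3 arrays of 36 hours after 2/3 PH were the 3 lowest of the 26, with the first array of 24 hours after 1/3 PH next at 3.99. For how many other miRNAs the operations separate at 6 or 36 hours was not counted.

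The group means ran from 4.77 ± 0.070 (SD, n = 3) at 6 hours after 2/3 PH to 3.75 ± 0.18 (SD, n = 3) at 36 hours after 2/3 PH. Between them, in falling order, stood 6 hours after 1/3 PH at 4.55 ± 0.089 (SD, n = 2), normal liver at 4.47 ± 0.32 (SD, n = 3), 12 hours after 1/3 PH at 4.43 ± 0.25 (SD, n = 3) and 12 hours after 2/3 PH at 4.37 ± 0.27 (SD, n = 3). They were followed by 24 hours after 1/3 PH at 4.32 ± 0.33 (SD, n = 3), 36 hours after 1/3 PH at 4.32 ± 0.035 (SD, n = 3) and 24 hours after 2/3 PH at 4.24 ± 0.098 (SD, n = 3). The mean of 12 hours after 1/3 PH is an upper bound, since 1 of its arrays is at its floor. With a floor of 1 unit this group differed from normal liver by -0.23 in place of -0.04, so its place in the order may be lower. Neighbours in this order overlapped, except that 6 hours after 2/3 PH did not overlap with 6 hours after 1/3 PH, and 36 hours after 2/3 PH did not overlap with 24 hours after 2/3 PH. The share of all miRNAs without overlap was not counted for these pairs. Between 36 hours after 2/3 PH and normal liver it was 63 of the 144 miRNAs tested, or 43.8%. The spread within a group differed widely, with the normal livers and 24 hours after 1/3 PH among the widest.

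Scan days differed in level as well as in groups. On the first scan day, with 17 arrays, miR-181a ranged from 3.99 to 4.80 with a median of 4.33. On the second, with 3 arrays, it ranged from 3.62 to 4.10, and on the third, with 6 arrays, from 3.96 to 4.82 with a median of 4.61. The second scan day held the lowest normal liver and 2 of the arrays of 36 hours after 2/3 PH, which were the 3 arrays of 1 slide.

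**Figure D3:**
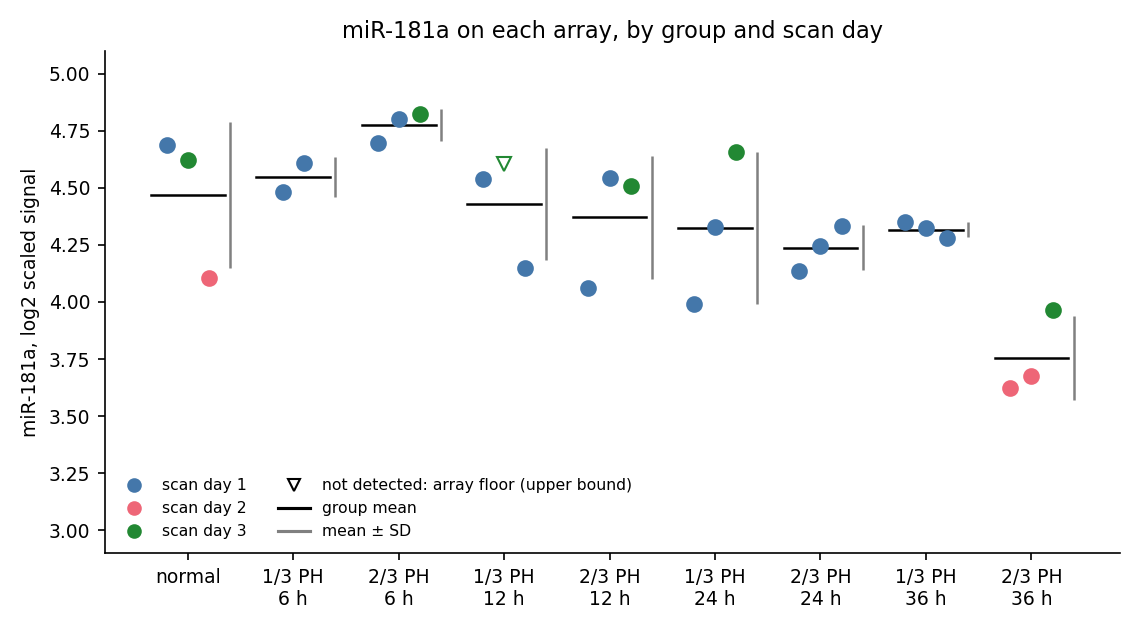
miR-181a on each array (log2 of scaled signal, points coloured by scan day) in the 9 groups, with the group mean (black line) and the mean ± SD (grey bar); the open triangle is the array without detection, drawn at its floor as an upper bound. The 3 arrays of 36 hours after 2/3 PH lie between 3.62 and 3.96, below all other arrays, whose lowest is at 3.99. With normexp background correction the difference of this group from normal liver has the opposite sign (0.61), beside a median of 0.63 over all miRNAs.

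At 36 hours after 2/3 PH miR-181a was lower than in normal liver, at 60.8% of its level, but the sign of the difference turned with normexp background correction, where it was 0.61 (adjusted p = 0.189). The difference was -0.72 on the log2 scale (standard error 0.18, 95% confidence interval -1.09 to -0.34, limma, adjusted p = 0.00619, 3 arrays against 3), and 3 of 3 arrays lay below the normal mean with no overlap between the groups, as for 63 of the 144 miRNAs tested, 25 of them lower. From the brighter probe alone the difference of miR-181a was -0.62, the second probe being well above background on 0 of 26 arrays. Of the 144 miRNAs tested in this comparison, 27 were called, 11 lower and 16 higher, which is 18.8%. With normexp, run with an offset of 50 units, the median difference of all 144 miRNAs was 0.63, and miR-181a differed from that median by -0.01. In the fit that gave -0.72 the median was 0.06. Without scaling between arrays the difference was -0.87 and with scaling over all probes -0.80, neither of them called (adjusted p = 0.27 and 0.648), while its distance from the median of all miRNAs is -0.78 in each, since scaling shifts all miRNAs of an array alike.

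The difference of miR-181a at 36 hours was smaller within slides and scan days. Within the second scan day, 2 arrays of 36 hours after 2/3 PH lay 0.46 below the 1 normal liver in the mean (log2 difference -0.46), and these 3 arrays also share a slide. Within the third scan day, the remaining array of the group differed from its 1 normal liver by -0.66. With scan day as a block the difference was -0.62 (adjusted p = 0.00648), and with slide as a block -0.46 (adjusted p = 0.142), where the estimate rests on the 3 arrays of 1 slide. In the deposited log2 table the difference was -1.60 (adjusted p = 0.384), with 0.72, 2.24 and 3.01 after 2/3 PH at 36 hours against 3.59, 4.21 and 2.96 in normal liver, so that the groups overlapped there.

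The other times after PH gave no call for miR-181a against normal liver, and all 8 comparisons with normal liver share its 3 arrays. At 6 hours the difference was 0.08 after 1/3 PH (adjusted p = 0.916; -0.10 in the deposited table and with slide as a block, -0.03 with the software's total, 1.26 with scaling over all probes, where the median of all miRNAs was 1.24) and 0.30 after 2/3 PH (confidence interval -0.07 to 0.68, adjusted p = 0.555). The value after 2/3 PH ran from 0.12 with slide as a block to 0.67 with normexp, where the median of all miRNAs was 0.57. For 1/3 PH and 2/3 PH at 6 hours, limma called 0 of 144 miRNAs each, or 0%, with 8 and 15 at an unadjusted p under 0.05. At 12 hours 1/3 PH, with the array at its floor, differed by -0.04 (adjusted p = 0.872), and this value ran from -2.45 in the deposited table, -1.09 with scaling over all probes and -0.79 without scaling to 0.62 with normexp. The medians of all miRNAs were -0.16, -0.95, -0.65 and 0.56 in these settings. In the deposited table the array without detection stands at its column's lowest value, -2.85, against 3.66 and 2.61 on the other arrays of the group, and it enters each value from that table that uses this group. The 2/3 PH arrays differed by -0.10 (adjusted p = 0.828; 0.15 with normexp). Called were 6 of 144, or 4.17%, and 10 of 144, or 6.94%. At 24 hours 1/3 PH differed by -0.15 (adjusted p = 0.926) and 2/3 PH by -0.23 (confidence interval -0.60 to 0.14, adjusted p = 0.443; 0.03 with normexp), beside 1 called miRNA, or 0.694%, and 26, or 18.1%. The widest gap between the operations in the share of called miRNAs at 1 time before 36 hours was this one, and miR-181a was among the called in neither. At 36 hours after 1/3 PH the difference was -0.15 (confidence interval -0.53 to 0.22, adjusted p = 0.832, and 0.07 with normexp). There limma called 0 of 144 miRNAs, or 0%, with 7 at an unadjusted p under 0.05. Under normexp the median of all miRNAs was 0.15 at 12 and 0.07 at 24 hours after 2/3 PH. It was 0.09 at 36 hours after 1/3 PH.

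On the first scan day, against its 1 normal liver at 4.69, the 1/3 PH groups differed by -0.14 (6 hours), -0.34 (12 hours), -0.53 (24 hours) and -0.37 (36 hours). The 2/3 PH groups differed by 0.06 (6 hours), -0.39 (12 hours) and -0.45 (24 hours) on that day. On the third scan day, against another normal liver at 4.62, 2/3 PH differed by 0.20 (6 hours) and -0.11 (12 hours), and 1/3 PH by -0.02 (12 hours, the array at its floor) and 0.03 (24 hours). Each of these values rests on 1 normal liver, and no error can be given for that liver.

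**Figure D4:**
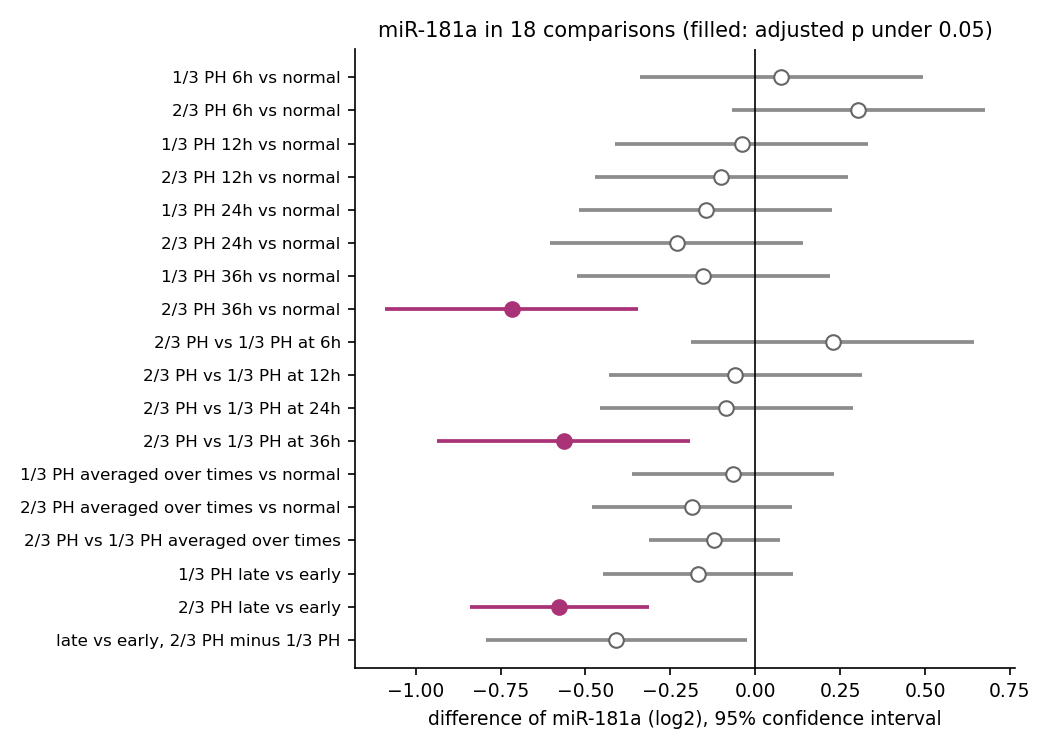
Differences of miR-181a (log2) with their confidence intervals in 18 comparisons; filled points have an adjusted p under 0.05, and late against early is 24 and 36 hours against 6 and 12 hours. The 3 filled differences are -0.72, -0.56 and -0.58, all involving 36 hours after 2/3 PH. The signs of -0.72 and -0.56 turn with normexp background correction (0.61 and 0.54), beside medians of 0.63 and 0.51 over all miRNAs.

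Between the operations, 1/3 PH serves as the operated control with little DNA synthesis. At 36 hours miR-181a was lower after 2/3 PH than after 1/3 PH by 1.48-fold, with the opposite sign under normexp background correction (0.54, adjusted p = 0.287, where the median of all miRNAs moved from -0.12 to 0.51). The log2 difference was -0.56 (standard error 0.18, confidence interval -0.94 to -0.19, adjusted p = 0.0413), and 3 of 3 arrays lay below the 1/3 PH mean. Here 22 of 144 miRNAs were called, or 15.3%, 7 of them lower. No scan day or slide held both groups, so that the operations at 36 hours can be compared within no batch. Of 14 other settings, 11 kept the sign and lost the call, which was also lost when any of 12 single arrays was left out, and with scan day as a block the difference was -0.43 (adjusted p = 0.226).

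At the earlier times miR-181a did not pass the test between the operations. At 6 hours the difference was 0.23 (confidence interval -0.19 to 0.64, adjusted p = 0.946). With scaling over all probes it was -1.04, where the median of all miRNAs moved to -1.32 and the distance from it stayed at 0.28. The 3 arrays after 2/3 PH lay above the 2 after 1/3 PH, but the share of all miRNAs that separate so was not counted. Within the first scan day and slide the difference was 0.20. At 12 hours it was -0.06, a lower bound because 1 array of 1/3 PH is at its floor (adjusted p = 0.930; 0.13 with a floor of 1 unit, 0.06 with slide as a block, 0.43 without scaling, 0.67 with scaling over all probes and 2.17 in the deposited table, where the last 3 stand beside medians of all miRNAs of 0.38, 0.63 and 0.07), and it was -0.04 within the first scan day and 0.15 within the 1 slide of that day with both operations. Within the third scan day, on 1 slide, the 12 hour difference was -0.09 (1 array against 1, that of 1/3 PH at its floor). At 6 and at 12 hours limma called 0 of 144 miRNAs between the operations, or 0%, with 3 and 9 at an unadjusted p under 0.05. At 24 hours the difference was -0.09 (confidence interval -0.46 to 0.29, adjusted p = 0.896), and 0.06 with normexp, beside a median of all miRNAs of 0.08. Here 4 of 144 were called, or 2.78%, all 4 higher after 2/3 PH. Within the first scan day the difference at 24 hours was 0.08 (3 arrays against 2).

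Over time after 2/3 PH, miR-181a fell from the early hours (6 and 12) to the late hours (24 and 36), to 67.1% of the early level. The log2 difference was -0.58 (standard error 0.13, confidence interval -0.84 to -0.31, adjusted p = 0.00117), and 6 of 6 late arrays lay below the early mean, although the groups overlapped. This comparison called 50 of 144 miRNAs, or 34.7%, 23 of them lower. It uses no normal liver. With scan day as a block the difference was -0.45 (adjusted p = 0.00507), and with normexp background correction -0.09 (adjusted p = 0.999).

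After 1/3 PH the late hours differed from the early ones, which include the array at its floor, by -0.17 (confidence interval -0.45 to 0.11, adjusted p = 0.573; -0.07 with a floor of 1 unit, 0.20 without scaling and 1.04 in the deposited table, the latter 2 beside medians of all miRNAs of 0.29 and 0.24), with 14 of 144 miRNAs called, or 9.72%. The change after 2/3 PH minus the change after 1/3 PH was -0.41 (confidence interval -0.79 to -0.02, adjusted p = 0.215). It was 0.22 with normexp and -2.07 in the deposited table, beside medians of all miRNAs of 0.25 and -0.27. In this comparison 10 of 144 miRNAs were called, or 6.94%. The decline in 2/3 PH was therefore called and that in 1/3 PH was not, but the difference between the operations did not pass the adjusted test.

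Averaged over the 4 times, miR-181a differed from normal liver by -0.07 after 1/3 PH (adjusted p = 0.873) and by -0.19 after 2/3 PH (adjusted p = 0.471). With normexp these differences were 0.17 and 0.37, beside medians of all miRNAs of 0.16 and 0.35. In the deposited table they were -0.75 and -0.49, beside medians of -0.15 and -0.04. For these averages limma called 0 of 144 miRNAs, or 0%, with 15 at an unadjusted p under 0.05, and 16 of 144, or 11.1%. The averaged difference between the operations was -0.12 (adjusted p = 0.559), with 5 of 144 called, or 3.47%. That difference was 0.19 with normexp and 0.26 in the deposited table, beside medians of all miRNAs of 0.18 and 0.07. Over all 9 groups the moderated F was 4.70 (adjusted p = 0.0116), and 43 of 144 miRNAs, or 29.9%, passed that test. For miR-181a this call was lost in 5 of 13 other settings and without either of 2 single arrays of 36 hours after 2/3 PH (adjusted p = 0.0663 and 0.0598).

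**Figure D5:**
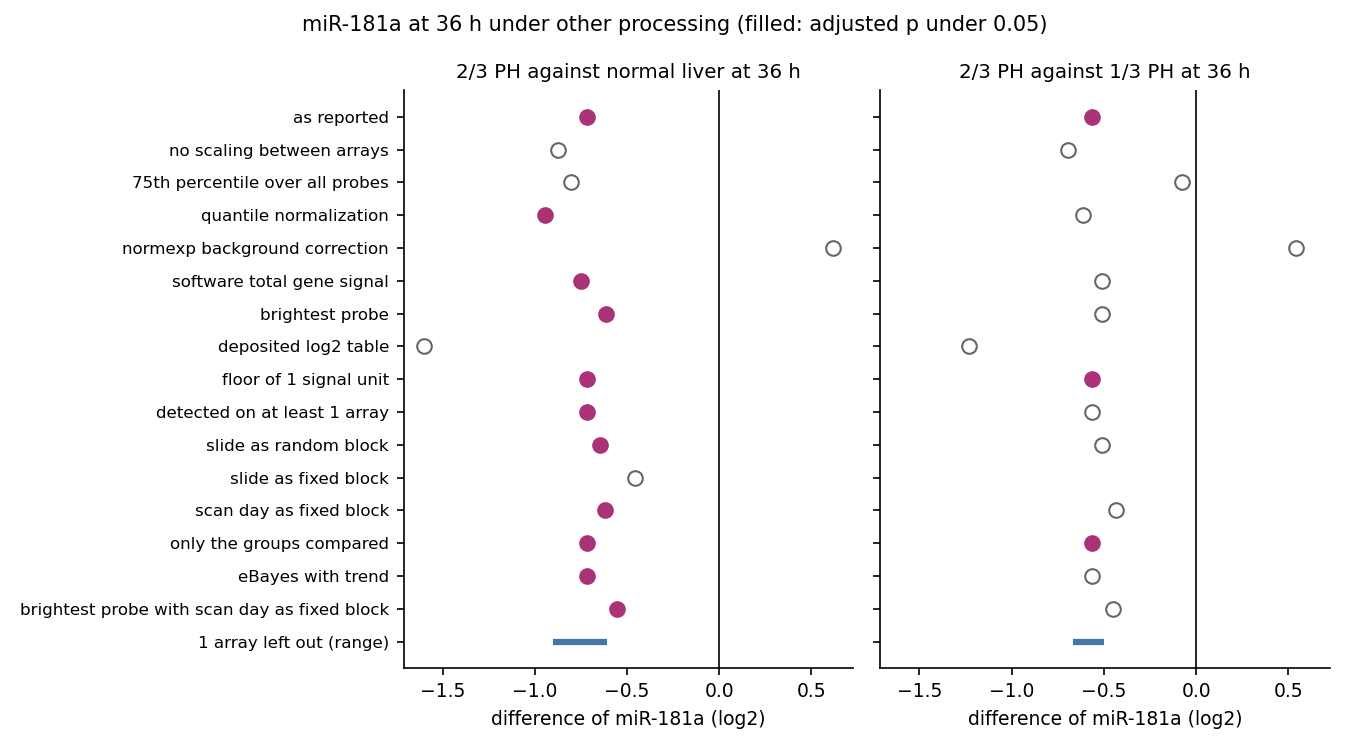
Difference of miR-181a (log2) at 36 hours between 2/3 PH and normal liver (left) and between 2/3 PH and 1/3 PH (right) as reported and under other processing; filled points have an adjusted p under 0.05, and the bar is the range with 1 array left out. Normexp background correction turns the sign in both panels (0.61 and 0.54), beside medians of 0.63 and 0.51 over all miRNAs. The other values run from -1.60 to -0.46 on the left and from -1.23 to -0.08 on the right.

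Marker miRNAs of cell types in liver were set beside the lower level of miR-181a at 36 hours after 2/3 PH; their part in it was not tested. In the leukocyte list, 6 of 7 miRNAs are on the array, 5 were detected on at least 1 array, and 4 were tested. miR-150, a miRNA of mature lymphocytes, was lower than in normal liver (-0.74, adjusted p = 0.00247), while miR-142-3p (-0.60, adjusted p = 0.122), miR-146a (-0.25, adjusted p = 0.396) and miR-223 (0.10, adjusted p = 0.821) were not called. Their median was -0.42 beside 0.06 over all 144 miRNAs, of which 27 were called, 11 of them lower. The summed scaled signal of the 4 was 221, 257 and 209 units in the normal livers and 187, 191 and 198 units at 36 hours after 2/3 PH. The groups did not overlap in this sum, whose brightest miRNA over the 26 arrays was miR-146a. At 24 hours after 2/3 PH, where miR-181a was not called, it was 151, 188 and 152 units, overlapping with 36 hours. miR-142-5p was detected on no array and miR-146b on 4.

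From the early to the late hours after 2/3 PH, 2 of the 4 leukocyte miRNAs were called lower, miR-150 by -0.51 (adjusted p = 0.00117) and miR-146a by -0.60 (adjusted p = 0.0014), with a list median of -0.36. Over all miRNAs tested 50 of 144 were called, 23 of them lower, with a median of 0.04. miR-150 was at the floor on 1 of the arrays of 6 hours after 2/3 PH, so its early level is an upper bound and its fall may be smaller. Between the operations at 36 hours none of the 4 was called, with a median of -0.25. Over all miRNAs tested 22 of 144 were called there, 7 of them lower, with a median of -0.12.

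In the biliary epithelial list 3 of 5 miRNAs were tested, of which 3 were higher at 36 hours after 2/3 PH than in normal liver, beside 27 of 144 called, 16 of them higher, and a median of 0.06 over all miRNAs tested. These were miR-200a (0.90, adjusted p = 0.0364), miR-200b (1.34, adjusted p = 0.00247) and miR-429 (1.28, adjusted p = 0.0036), which belong to a family typical of epithelia. miR-200a was set to the floor in 2 of the 3 normal livers and miR-429 in 1, so their differences are lower bounds and the sums of these 2 livers upper bounds. The sum of the 3 was 65.3, 63.7 and 34.4 units in normal liver and 146, 134 and 96.1 units at 36 hours after 2/3 PH, with miR-200b the brightest over the 26 arrays. Its mean was 121 ± 20.2 units (SD, n = 3) at 12 hours after 1/3 PH, where miR-181a was not called and both miR-200a and miR-429 were at the floor on 1 array. miR-200c and miR-141 were detected on no array. Late against early after 2/3 PH, 3 of 3 were called higher with a median of 0.65, beside 27 of 144 higher and a median of 0.04 over all miRNAs tested. miR-200a and miR-429 were at the floor on 2 of the 3 arrays of 6 hours, and miR-200a also on 1 array each of 12 and 24 hours, so that its difference is no bound in either direction. Between the operations at 36 hours 1 of 3 was called, miR-200b (0.90, adjusted p = 0.0413), with a median of 0.71, beside 22 of 144 called, 15 of them higher, and a median of -0.12. After 1/3 PH at 36 hours miR-200a and miR-429 were at the floor on 2 of 3 arrays.

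The remaining lists gave no call at 36 hours against normal liver, between the operations at 36 hours, or from early to late after 2/3 PH. Over all miRNAs tested, 27, 22 and 50 of 144 were called in these comparisons. miR-122 of hepatocytes differed from normal liver by 0.01 (adjusted p = 0.972), with summed group means between 35128 and 40873 units over the 9 groups. miR-126 of endothelium differed by -0.24 (adjusted p = 0.300) and the red cell miRNA miR-451 by -0.41 (adjusted p = 0.502). miR-126* was detected on 3 arrays and miR-144 on 1, and neither was tested. Of the 5 stellate and other mesenchymal miRNAs, miR-145 was detected on no array, and the 4 tested had a median of 0.07, with miR-143 the brightest over the 26 arrays. Mean sums in normal liver and at 36 hours after 2/3 PH were 601 and 506 units for the endothelial miRNA, 309 and 288 units for the mesenchymal ones and 99.2 and 75.1 units for miR-451. As with the leukocyte sum, the groups did not overlap for miR-126 (lowest normal liver 554 units, highest array at 36 hours 543) or for miR-451 (91.6 and 89.0 units), and they overlapped for the mesenchymal sum. Of the 144 miRNAs tested, 63, or 43.8%, did not overlap in this comparison.

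The hairpin cluster of miR-23a, miR-27a and miR-24 lies on the chromosome of miR-181c and miR-181d. All 3 were detected on 26 of 26 arrays. At 36 hours after 2/3 PH they differed from normal liver by -0.37 (adjusted p = 0.142), 0.18 (adjusted p = 0.389) and -0.20 (adjusted p = 0.242), so none was called, beside 27 of 144 over all miRNAs tested. From early to late after 2/3 PH miR-27a was higher (0.53, adjusted p = 0.000278), while miR-23a (-0.30, adjusted p = 0.0732) and miR-24 (-0.13, adjusted p = 0.257) were not called, beside 50 of 144 called. Between the operations at 36 hours they differed by -0.16, -0.11 and -0.21, with 0 of 3 called beside 22 of 144. miR-181c and miR-181d gave no signal to set beside these.

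The miRNAs whose levels ran most like that of miR-181a were sought over the 25 arrays with its detection, among 97 other miRNAs detected on all of them. Restricting the search to these arrays was chosen after the data were seen, since no member was detected on all 26. The highest correlations were with miR-10a-5p (Pearson r = 0.84, Spearman rho = 0.79), miR-30a* (r = 0.82, rho = 0.76), miR-23a (r = 0.82, rho = 0.83), miR-26a (r = 0.77, rho = 0.72) and miR-511* (r = 0.75, rho = 0.79), each with n = 25. The lowest were with miR-106b (r = -0.78, rho = -0.73) and miR-3559-5p (r = -0.78, rho = -0.79). Over the 97 miRNAs the median r was 0.04, and 50 were above 0. Arrays share slides and scan days, and the miRNAs of an array share 1 scaling factor, so these values describe the arrays and are no test.

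Without the 2 arrays farthest from the median of miR-181a, the first and second of 36 hours after 2/3 PH, r was 0.76 for miR-10a-5p, 0.69 for miR-30a*, 0.77 for miR-23a, 0.58 for miR-26a, 0.66 for miR-511*, -0.66 for miR-106b and -0.74 for miR-3559-5p. After subtraction of scan day means r was 0.84 for miR-10a-5p and 0.81 for miR-23a, and between 0.66 and 0.69 for the other 3 of the 5. At 36 hours after 2/3 PH against normal liver, the most alike differed by -0.60 (miR-10a-5p), -0.38 (miR-30a*), -0.37 (miR-23a), -0.64 (miR-26a) and -0.69 (miR-511*), and the least alike by 0.74 (miR-106b) and 0.61 (miR-3559-5p). These miRNAs were picked by their correlation over the same arrays, which bears on these signs, so the values are a description without a test.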

How the data were processed

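Spot intensity values came from the scanner files of the authors (Agilent Feature Extraction, version 10.7.3.1), background-subtracted and on a linear scale. A table in log2 units that the authors deposited (699 entries, 22 of them controls) served as an alternative. Its column medians ran from -3.32 to -2.85, and its normalization and centring are not given in the sources used here.

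Spots that the software marked as outliers were dropped, the mean of the other spots was taken for a probe, and probe means were added up for a miRNA. Arrays were scaled to the 75th percentile over 109 probes, sums under the array's floor were set to it, and log2 was taken. Tests used limma 3.58.1 in R 4.3.3 (lmFit, eBayes, 9 groups, 26 arrays, 17 residual degrees of freedom) over 144 miRNAs, those with detection throughout 1 group or more, with Benjamini-Hochberg adjustment over these in each comparison and calls at 0.05. Among them was 1 of the 4 members. The procedure was tested on simulated data. Python 3.11.15 with pandas 2.3.3 and matplotlib 3.10.9 was used.

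Named were the 4 members and their other arms, the 5 miRNAs most like a member and the 2 least, the cluster of miR-23a, and marker lists of 6 kinds of cells. The members and lists were chosen with earlier results of these data known. Alternatives were the deposited table, normexp for background, quantile normalization, scaling over all probes or none, a floor of 1 unit, the brightest probe or the software's total in place of the sum, another detection filter, slide or scan day as a block, eBayes with trend, fits to only the groups compared, and each array left out. Scan day as a block with the brightest probe and the 25 arrays of the correlations were added after the data were seen. Each array is 1 rat, and between 91 and 155 miRNAs were detected on an array.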

Additional observations from a re-analysis of the deposited data

How the results depend on the processing

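For 2/3 PH at 36 hours against normal liver, the difference of miR-181a (-0.72) kept its sign and call in 10 of 15 other settings and without any 1 of the 26 arrays (-0.90 to -0.61, adjusted p 0.00226 to 0.0437). It lost the call without scaling (-0.87), with the 75th percentile over all probes (-0.80), in the deposited log2 table (-1.60) and with slide as a fixed block (-0.46), and turned to 0.61 with normexp. Adjusted p over the 15 settings ran from 0.00648 to 0.648. With normexp the median of all miRNAs was 0.63, and miR-181a differed from it by -0.01.

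For 2/3 PH against 1/3 PH at 36 hours (-0.56), 2 of 14 settings kept the call. It was lost without scaling (-0.69), over all probes (-0.078), with quantile normalization (-0.61), the software's total (-0.51), the brightest probe (-0.51), the deposited table (-1.23), detection on at least 1 array (-0.56), slide as a random block (-0.51), scan day as a block (-0.43), eBayes with trend (-0.56) and the brightest probe with scan day (-0.45), and the sign turned with normexp (0.54). With 1 array left out it ran from -0.67 to -0.50, and adjusted p from 0.0235 to 0.171, and the call was lost without either array of 6 hours after 1/3 PH, replicates 2 and 3 of 6 hours after 2/3 PH, the second of 24 hours after 1/3 PH, the first or second of 24 hours after 2/3 PH, any of 36 hours after 1/3 PH, and the first or second of 36 hours after 2/3 PH. In the 7 of these that belong to neither group compared the difference stayed at -0.56 and adjusted p lay between 0.0504 and 0.0564. With normexp the median of all miRNAs was 0.51 between the operations, and miR-181a differed from it by 0.03.

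For the late against the early hours after 2/3 PH (-0.58), 10 of 14 settings kept the call. It was lost without scaling (-0.47), over all probes (-0.65), with normexp (-0.090) and in the deposited table (-1.03). With 1 array left out it ran from -0.65 to -0.53 and kept the call in 26 of 26. The adjusted p of the F test (0.0116) rose to 0.456 without scaling, 0.0522 with quantile normalization, 0.484 with normexp, 0.0557 with the software's total and 0.419 in the deposited table, and ran from 0.0053 to 0.0663 with 1 array left out, above 0.05 without the first (0.0663) or the second (0.0598) array of 36 hours after 2/3 PH.

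The 15 differences that were not called gained 0 calls in 219 other settings, 25 of them with the other sign, and 0 in 390 fits with 1 array left out, 12 of them with the other sign. Where the sign turned without scaling or with scaling over all probes, all miRNAs of an array were shifted alike and the distance of miR-181a from their median did not change. Leaving out 1 array gave, against normal liver, -0.11 to 0.18 at 6 hours, -0.22 to 0.10 at 12, -0.33 to 0.02 at 24 and -0.34 to -0.05 at 36 after 1/3 PH, and 0.12 to 0.41 at 6, -0.28 to 0.06 at 12 and -0.42 to -0.12 at 24 hours after 2/3 PH. Between the operations it gave 0.16 to 0.29 at 6, -0.20 to 0.10 at 12 and -0.25 to 0.08 at 24 hours. The averages ran from -0.25 to 0.04 (1/3 PH), -0.37 to -0.08 (2/3 PH) and -0.16 to -0.08 (between them), late against early after 1/3 PH from -0.25 to -0.08, and the difference of the changes from -0.49 to -0.33.

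Detection on every array as a filter removes miR-181a and was not run for it. Slide as a fixed block was estimable for some comparisons only, and the F test was not run with it or with only the groups compared. No paired analysis was possible because replicate numbers name rats in the order of the series and tie no array to another. The causes of the changes were not tested, and normexp was run with 1 offset (50 units), so that its correction and its offset cannot be told apart. The brighter probe of miR-181a stood at a median of 136% of the floor, which limits how far down its level can be followed. miR-181b, miR-181c and miR-181d have no measured level.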
